A study of Mus musculus with 12 samples.

Results

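The effect of pimobendan on the left ventricular transcriptome was taken over both surgeries at once: all 6 drug-treated mice were set against all 6 controls, with surgery as a covariate. All 12 of the 12 libraries of the series entered this comparison. They came from C57BL/6 mice in 4 groups of 3, with or without TAC and with or without the drug (Sham+control, TAC+control, Sham+pimobendan and TAC+pimobendan), and each library was a separate mouse. TAC is transverse aortic constriction, in which a clip narrows the arch of the aorta and the ventricle must pump against a higher pressure; sham mice were operated on without it. Surgery was done at 8 weeks of age and the left ventricle was sampled at 12 weeks. Treated mice received oral pimobendan at 1 mg/kg/day over the 4 weeks between. The labels name no vehicle for the controls, and no mouse carried a transgene. Genes entered when at least 3 of the 12 libraries reached 1 FPKM (fragments scaled by transcript length and by the library's mapped fragments), which kept 11415 of 17052.

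Pimobendan is an inodilator given for heart failure. It binds cardiac troponin C and makes the thin filament more sensitive to calcium, and it inhibits phosphodiesterase 3, the cAMP-degrading enzyme that sits close to the sarcoplasmic reticulum of cardiomyocytes. A block of that enzyme raises cAMP, which acts through protein kinase A, the exchange factors Rapgef3 and Rapgef4, and the transcription factor CREB. The series was designed around pressure-overload hypertrophy, in which MAP kinases (Mapk3, Mapk8 and Mapk14 among them) carry growth and stress signals and genes of the fetal heart are turned on again.

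Heart muscle transcripts matched the tissue label. The cardiomyocyte gene Myl2 lay between 18780 and 23533 FPKM in every library. Of the thymus markers, Ptcra and Themis had a median of 0 and Cd4 one of 0.365 FPKM. Of 8 atrial markers, Sln and Bmp10 had a median of 0. Myl7, Dkk3, Myl4 and Nr2f2 had medians of 0.465, 0.775, 1.87 and 3.4 FPKM, and Stard10 and Nppa 22.6 and 269.5. A share of atrial tissue was not tested. No member of the B cell, T and NK cell, adipocyte, thymus or lung lists reached the threshold for testing. Fewer cells of a type and less RNA per cell cannot be told apart in such bulk tissue. Depth is unknown, since the table holds no counts, and a value listed at 0 may be a failed estimate. Libraries differed in the share of transcripts of low GC content. For each library, its deviation per gene from the 12-library average was ranked against GC content. Spearman's rho was -0.337, 0.0796 and 0.454 for the untreated sham mice and 0.141, 0.359 and 0.524 for the treated ones. The TAC values were 0.122, 0.00546 and 0.279 without the drug and -0.195, -0.510 and -0.518 with it. Thus the trend of drug against control pointed one way in sham and the other in TAC. Within TAC every treated value lay below every untreated one, while the sham values overlapped. Over both surgeries the mean difference was -0.134 (two-sided exact permutation within surgery, p = 0.495 over 400 arrangements). Opposite trends cancel in that mean, so its p-value does not bear on a trend within either surgery.

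**Figure D1:**
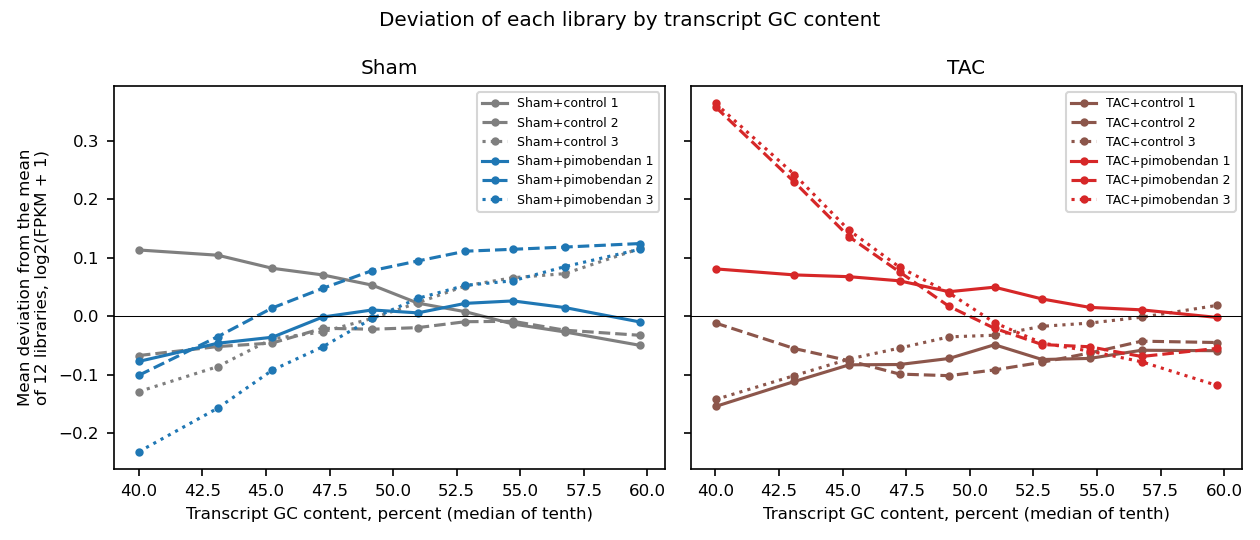
Mean deviation of each library from the mean of 12 libraries in log2(FPKM + 1) (y axis) over genes binned by transcript GC content in percent (x axis), sham on the left and TAC on the right, 1 line per library. TAC+pimobendan replicates 2 and 3 rise steeply towards low GC, Sham+pimobendan replicate 3 falls there, and Sham+control replicate 1 departs from the other sham libraries.

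No gene passed the pooled test. With limma on log2(FPKM + 1), 0 of 11415 genes (0% called) had a Benjamini-Hochberg adjusted p under 0.05, and the smallest was 0.0624, for Srsf5. At an unadjusted p under 0.05 there were 1040 genes, 913 of them higher with pimobendan (8% of those tested) and 127 lower (1.11%). This imbalance moved with the scale of the values: the split was 1078 to 82 with TPM, 438 to 390 with median-ratio scaling, 334 to 358 with quantile normalization and 538 to 409 with the GC trend removed. The median log2 difference over all genes was 0.06, and 68.7% of genes had a positive sign. The same 2 values were 0.013 and 53.7% within sham and 0.095 and 66.0% within TAC. Within sham 0 genes were called (0% of 11415; 518 at an unadjusted p under 0.05). Within TAC the drug comparison called 360 genes higher (3.15%) and 13 lower (0.114%), but 0 in either direction under median-ratio scaling, quantile normalization or removal of the GC trend. Those calls also fell to 0 higher without TAC+control replicate 1 or 3 or TAC+pimobendan replicate 2, to 1 without Sham+control replicate 2 or Sham+pimobendan replicate 2, and to 2 without TAC+pimobendan replicate 3. The interaction of drug and surgery called 0 genes (0%; 2312 unadjusted).

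Genes whose arms separated completely were few. All 6 pimobendan values lay above all 6 control values for 31 genes (0.272% of those tested) and below them for 6 genes (0.0526%). The 31 included Srsf5, the lysozyme genes Lyz1 and Lyz2, the interferon-signalling genes Irf9 and Irgm1, Prkaa1 (a catalytic subunit of AMP-activated kinase), the calcium channel subunit Cacnb2 and the cyclin-dependent kinase inhibitor Cdkn2c. The 6 lower genes were Slc25a38, Alpl, Klhl21, Selenoo, Ovca2 and Actn2. Of these names, Lyz2, Irf9, Irgm1, Prkaa1, Cdkn2c, Klhl21, Selenoo and Ovca2 were picked after their values were seen. Within TAC, 6 of the 31 were called higher (3.15% of all genes were) and 3 of the 6 lower (0.114% were), but TAC mice took part in choosing these genes, so nothing follows from those counts.

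The splicing factor Srsf5 led the comparison. Srsf5 (NCBI Gene 20384; GRCm38 chr12:80945504-80961528, plus strand) encodes an SR protein that binds exonic enhancers of pre-mRNA. Sham+control mice had 51.4, 42.1 and 54.4 FPKM, and treated sham mice 89.4, 91.4 and 61.8. In TAC+control it had 31.7, 32.1 and 29.4 FPKM, against 86.8, 85.5 and 61.6 in TAC+pimobendan. The arms did not overlap: the lowest treated mouse, at 61.6 FPKM, stood above the highest control, at 54.4. The mean was 40.2 ± 10.8 FPKM (SD, n = 6) in controls and 79.4 ± 13.9 with pimobendan. Its pooled log2 difference of 0.99 ± 0.14 (SE; 95% confidence interval 0.69 to 1.28) missed the threshold (limma adjusted p = 0.0624). It passed when both within-surgery differences were averaged in a fit with 1 mean per group (limma adjusted p = 0.0125) and rose within TAC by 1.28 ± 0.16 (limma adjusted p = 0.0309); within sham its log2 difference was 0.69 (limma adjusted p = 0.91). Over all alternatives its pooled adjusted p ran from 0.00302 (limma, without Sham+pimobendan replicate 3) to 0.323 (without TAC+control replicate 2), and its difference stayed between 0.87 and 1.10. The SR list, Srsf5 included, had a pooled median of 0.02, below the 0.06 of all genes. Of 21 tested, 13 were positive and 8 negative. The median was negative under median-ratio and quantile scaling and with the GC trend removed. It joined opposite signs: within sham 3 were positive (median -0.17), and within TAC 17 were (median 0.27). The median transcript GC content of the list was 43.9% and that of Srsf5 40.1%, against 50.1% for all genes. With the GC trend removed the Srsf5 difference was 0.87 (limma adjusted p = 0.0507). The part of the GC trend in these signs was not tested. Within TAC 3 list members were called higher, Srsf5 among them, against 3.15% of all genes. The difference between surgeries was not tested for the list. Srsf6 was next among the higher members, at 0.23 ± 0.10.

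The other leading higher genes concerned myeloid cells, interferon and glycerol transport. Lyz1, a lysozyme of phagocytes (chr10:117287795-117292868, minus strand), ran from 7.77 over a median of 8.82 to 10.8 FPKM in controls and from 12.2 over 13.0 to 15.7 with pimobendan. All 6 treated mice exceeded all 6 controls; its log2 difference was 0.53 ± 0.09 (limma adjusted p = 0.226). Lyz1 and its neighbour Lyz2 are near-identical copies, so the split of reads between them is uncertain, but Lyz2 had the same sign, at 0.40 ± 0.10. Aqp7, a channel for water and glycerol, ran from 7.92 over 10.4 to 11.8 FPKM in controls and from 9.93 over 13.8 to 18.4 with pimobendan, at 0.40 ± 0.08 (limma adjusted p = 0.344). Its arms overlapped because both TAC groups lay low, and within each surgery every treated mouse exceeded every control. Plpp5, a lipid phosphatase, behaved alike within surgeries. Its controls ran from 5.28 to 7.01 FPKM and treated mice from 6.39 to 11.1, with a log2 difference of 0.46 ± 0.10 (limma adjusted p = 0.344). Aqp7 and Plpp5 were chosen for a small pooled p with the same sign in both surgeries, so nothing follows from their separation within surgeries.

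**Figure D2:**
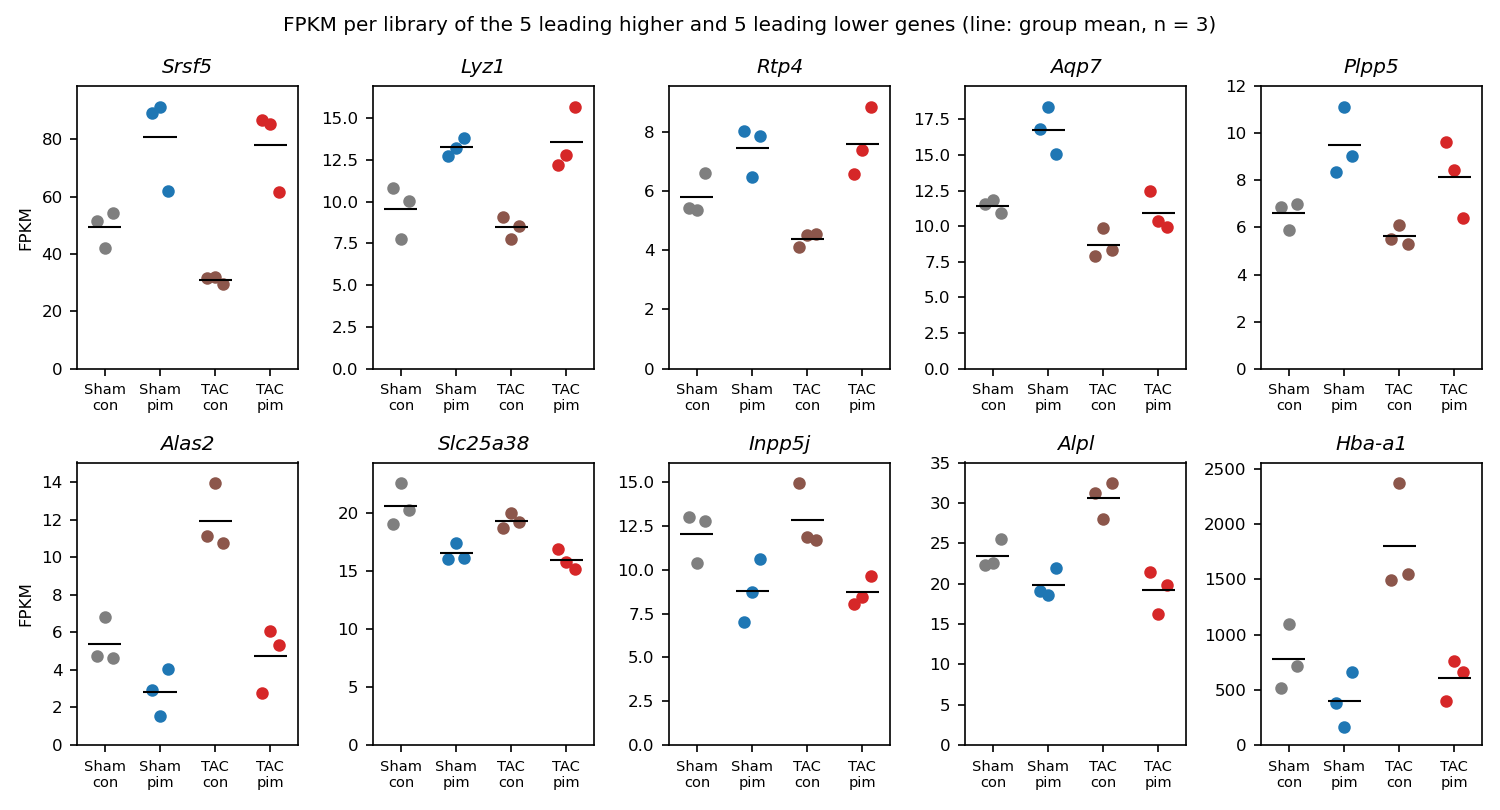
FPKM of each library (y axis, from 0) for the 5 higher and 5 lower genes with the smallest pooled p under the naming rule, by group (con, control; pim, pimobendan); points are mice and lines are group means of 3. Srsf5, Lyz1, Slc25a38 and Alpl separate all 6 treated mice from all 6 controls.

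On the lower side, genes of haem and haemoglobin led. Alas2 (chrX:150547417-150570622, plus strand) encodes the erythroid form of the enzyme that starts haem synthesis. It had 4.76, 6.81 and 4.61 FPKM in Sham+control against 2.92, 1.54 and 4.07 in Sham+pimobendan. In TAC+control it had 11.1, 13.9 and 10.8 FPKM against 2.77, 6.08 and 5.30 in TAC+pimobendan. Every treated mouse lay below every control of its own surgery, while the arms overlapped across surgeries. Alas2 too was chosen for a small pooled p with the same sign in both surgeries, so nothing follows from that separation. The pooled difference was -1.0 ± 0.19 (95% confidence interval -1.41 to -0.59; limma adjusted p = 0.344), and within TAC Alas2 fell by 1.22 on the log2 scale (limma adjusted p = 0.0409). Slc25a38, the mitochondrial carrier that brings glycine to haem synthesis, ran from 18.8 over 19.6 to 22.6 FPKM in controls and from 15.2 over 16.1 to 17.4 with pimobendan. Its arms did not overlap, with a small and even difference of -0.28 ± 0.06 (limma adjusted p = 0.344), -0.30 within sham and -0.26 within TAC. Hba-a1, an alpha-globin gene, ran from 521 over 1294 to 2370 FPKM in controls and from 163 over 527 to 763 with pimobendan, at -1.35 ± 0.30 (limma adjusted p = 0.344).

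The red-cell list as a whole had the lowest median of any list with at least 5 tested members. Of 10 markers, 8 were tested, 7 were negative and 5 had an unadjusted p under 0.05 on the lower side, against 1.11% of all genes. The median log2 difference was -1.12, beside 0.06 for all genes, with -0.93 within sham and -1.25 within TAC. It stayed between -1.30 and -0.96 when any single library was left out, and between -1.18 and -1.13 under the other scalings. The 5 were Alas2 and the globins Hba-a1, Hba-a2, Hbb-bs and Hbb-bt, of which Hba-a2, Hbb-bs and Hbb-bt had pooled differences of -1.37, -1.27 and -1.24. Alpha-globins and beta-globins each form pairs of near-identical copies, so their split is uncertain. Bpgm and Ube2l6, which other cells also express, stood at -0.06 and 0.03, and the red-cell membrane marker Slc4a1 had a median of 0.045 FPKM. Summed FPKM of the 8 genes was 1575 to 3086 in Sham+control, 476 to 1930 in Sham+pimobendan, 4224 to 6733 in TAC+control and 1165 to 2307 in TAC+pimobendan. The treated range did not meet the control range within TAC but did within sham. Over both surgeries the arms overlapped, and the part of red-cell RNA in the other differences was not tested.

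The remaining leading lower genes were phosphatases. Alpl, the tissue-nonspecific alkaline phosphatase (chr4:137741731-137796384, minus strand), ran from 22.3 over 26.8 to 32.4 FPKM in controls and from 16.3 over 19.5 to 21.9 with pimobendan. Its arms did not overlap; the pooled difference was -0.44 ± 0.10 (limma adjusted p = 0.344), and within TAC it fell by 0.65 on the log2 scale (limma adjusted p = 0.0409). Inpp5j, an inositol polyphosphate 5-phosphatase, ran from 10.4 to 14.9 FPKM in controls and from 7.02 to 10.6 with pimobendan, at -0.47 ± 0.10 (limma adjusted p = 0.344).

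No transcript of the drug's own targets passed the test. Pde3a, the cardiac phosphodiesterase 3 isoform, ran from 6.15 over 7.28 to 9.17 FPKM in controls and from 7.20 over 9.22 to 10.9 with pimobendan. Pde3b ran from 0.37 over 0.645 to 1.05 FPKM and from 0.83 over 0.96 to 1.12. Both overlapped between arms, with pooled differences of 0.27 ± 0.11 (limma adjusted p = 0.537) and 0.25 ± 0.10 (limma adjusted p = 0.512). Tnnc1, which encodes the cardiac troponin C that binds the drug, stood at -0.14 ± 0.09, with controls between 3870 and 4921 FPKM and treated mice between 3207 and 4776. Among all 15 phosphodiesterase genes tested, 12 were positive and 6 had an unadjusted p under 0.05, all higher (8% of all genes were), and the median was 0.14. The 6 were Pde2a, the cGMP-stimulated form, at 0.30 ± 0.09, together with Pde7b, Pde1c, Pde9a, Pde3a and Pde3b. Under quantile normalization and with the GC trend removed the median of the list was 0.04 and 0.03, against -0.001 for all genes in both.

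Genes downstream of cAMP had mixed signs. Rapgef3, the cAMP-gated exchange factor Epac1, ran from 7.47 over 8.55 to 10.6 FPKM in controls and from 9.56 over 10.5 to 11.3 with pimobendan, at 0.24 ± 0.08 (limma adjusted p = 0.48). Of 20 cAMP and protein kinase A genes, 14 were positive, beside 68.7% of all genes, and 3 had an unadjusted p under 0.05, all higher (8% of all genes were). The median was 0.07, and 0.02 or less under median-ratio and quantile scaling and with the GC trend removed. The 13 CREB target genes leaned the other way, with 9 negative, a median of -0.24 and 0 positive within sham. Their values spread widely between mice. Atf3, for example, was 7.13 to 132 FPKM in Sham+control and 2.93 to 142 in TAC+control, and Nfil3 was the only member with an unadjusted p under 0.05, at -0.60 ± 0.22. The median of this list lay between -0.09 and -0.04 without Sham+control replicate 1 or 2, Sham+pimobendan replicate 2 or TAC+control replicate 3. The cAMP response element, TGACGTCA, reads the same on both strands. It was present in 10 of 720 promoters of unadjusted higher genes (1.39%) and 5 of 104 of unadjusted lower genes (4.81%). The share was 3.52% over all 9129 genes with a promoter in the RefSeq table. Among 10 CREB target genes with a promoter, only Dusp1 held it.

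No MAP kinase transcript passed the test. Mapk3 (ERK1), a kinase of growth signals, ran from 47.5 over 50.8 to 64.7 FPKM in controls and from 49.2 over 52.6 to 73.7 with pimobendan. Mapk8 (JNK1), which stress activates, ran from 4.46 over 5.33 to 6.6 FPKM and from 4.60 over 5.04 to 6.69. Mapk14 (p38 alpha) ran from 22.3 over 28.9 to 33.0 FPKM and from 23.9 over 31.4 to 33.0. The arms of all 3 overlapped over most of their range. The log2 difference was 0.09 for Mapk3 (95% confidence interval -0.11 to 0.28), 0.02 for Mapk8 (-0.18 to 0.23) and 0.10 for Mapk14 (-0.10 to 0.29); Mapk8 changed sign under median-ratio scaling, quantile normalization and GC removal. Of 23 genes of the cascade, 19 were positive and 0 had an unadjusted p under 0.05 by limma in either direction; the median was 0.08, beside 0.06 for all genes. These are transcript levels, and the activity of a kinase is not measured by them. Among 13 feedback genes of the pathway, 2 had an unadjusted p under 0.05 on the higher side and 1 on the lower, beside 8% and 1.11% of all genes. Dusp8, a phosphatase of stress-activated MAP kinases, ran from 16.3 over 20.9 to 29.5 FPKM in controls and from 10.7 over 14.0 to 22.6 with pimobendan, at -0.51 ± 0.17 (limma adjusted p = 0.509).

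Interferon-response genes had positive pooled differences, with a higher median within TAC than within sham. All 30 tested members had a positive pooled difference and 12 an unadjusted p under 0.05 (8% of all genes were higher at that threshold). The pooled median was 0.36, with 0.73 within TAC and 0.02 within sham, where 15 of 30 were positive. Within TAC 13 members were called higher, against 3.15% of all genes. No gene was called within TAC under median-ratio scaling, quantile normalization or removal of the GC trend. The difference between surgeries was not tested for the list, and the interaction called 0 genes. Rtp4, an interferon-induced chaperone of receptors, had 4.13, 4.51 and 4.57 FPKM in TAC mice without the drug and 6.58, 7.41 and 8.86 in those given it. In sham it had 5.44, 5.37 and 6.62 FPKM without the drug and 8.03, 6.47 and 7.88 with it. Its pooled difference was 0.49 ± 0.10 (limma adjusted p = 0.344), and it rose within TAC by 0.67 ± 0.12 (limma adjusted p = 0.0409).

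Irf9, the DNA-binding subunit of the complex that interferon receptors activate, and Irgm1 were the members of this list whose arms did not overlap; they and Stat2 were picked after their values were seen. For Irf9, controls ran from 7.01 over 7.72 to 8.98 FPKM and treated mice from 9.88 over 13.3 to 23.2, at 0.80 ± 0.17 (limma adjusted p = 0.344). Its partner Stat2 ran from 3.92 to 5.72 FPKM and from 4.51 to 10.1, and the GTPase Irgm1 from 9.05 to 12.1 and from 12.5 to 34.0. TAC+pimobendan replicate 3 had the highest value for Irf9, Stat2 and Irgm1, followed by Sham+pimobendan replicate 1. The summed level of the 30 genes was 178 to 192 FPKM in TAC+control, 266 to 517 in TAC+pimobendan, 234 to 270 in Sham+control and 257 to 318 in Sham+pimobendan. TAC+control was thus the lowest of the 4 groups, and its range met none of the others. Without TAC+pimobendan replicate 3 the pooled median was 0.25.

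The promoters of Irgm1 and Stat2 show the sequence that interferon-activated factors bind. Of the 22 list members with a promoter in the RefSeq table (250 bases before to 50 after the start, build GRCm38.p6), 16 held the core GAAANNGAA on either strand. That is 72.7%, against 8.34% of all tested genes with a promoter and 10.7% of the unadjusted higher genes. The list was chosen as interferon-response genes, so its share describes the list and does not bear on the drug difference. Capitals mark the core; the Irgm1 promoter (chr11:48871371-48871670, minus strand) holds 2 overlapping matches, and the Stat2 promoter (chr10:128270248-128270547, plus strand) holds 1 on the opposite strand.
Irgm1: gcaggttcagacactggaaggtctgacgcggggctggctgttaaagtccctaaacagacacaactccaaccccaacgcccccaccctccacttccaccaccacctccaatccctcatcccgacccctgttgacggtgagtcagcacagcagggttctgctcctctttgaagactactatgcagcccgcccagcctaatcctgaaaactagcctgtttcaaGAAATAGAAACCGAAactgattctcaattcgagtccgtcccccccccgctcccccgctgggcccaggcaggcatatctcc
Stat2: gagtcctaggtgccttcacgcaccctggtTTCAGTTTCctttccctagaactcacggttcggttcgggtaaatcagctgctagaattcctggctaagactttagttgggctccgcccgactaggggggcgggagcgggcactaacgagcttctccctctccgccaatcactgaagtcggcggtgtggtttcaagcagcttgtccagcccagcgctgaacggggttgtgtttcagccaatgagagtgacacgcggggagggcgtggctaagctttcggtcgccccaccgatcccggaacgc

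Antigen-presentation genes, which interferon also induces, were positive in both surgeries. All 13 tested members had a positive difference within sham, within TAC and pooled, and 7 had an unadjusted pooled p under 0.05 (8% of all genes were higher at that threshold). Within TAC 0 members were called, beside 3.15% of all genes called higher. The pooled median was 0.38, with 0.12 within sham and 0.53 within TAC. It lay between 0.32 and 0.41 under the other scalings and between 0.26 and 0.44 when any single library was left out. Summed FPKM of the 13 genes was 841 to 967 in Sham+control and 924 to 1118 in Sham+pimobendan, which overlapped. It was 704 to 781 in TAC+control and 885 to 1439 in TAC+pimobendan. H2-K1, a class I heavy chain, ran from 70.9 over 87.8 to 105 FPKM in controls and from 88.7 over 117 to 144 with pimobendan, at 0.38 ± 0.11 (limma adjusted p = 0.442). Its reads cannot be fully told apart from those of the near-identical H2-D1, which stood at 0.25. B2m, the class I light chain, stood at 0.46 ± 0.13, and the class II genes H2-Ab1 and Cd74 at 0.48 and 0.45. Markers of macrophages, which carry class II molecules, had the same sign: 13 of 13 were positive when pooled and 9 within sham, with a pooled median of 0.21. Of them Lyz2, Ctss and Csf1r, 3 in all, had an unadjusted p under 0.05, against 8% of all genes. Their summed level was 332 to 424 FPKM in Sham+control, 370 to 544 in Sham+pimobendan, 346 to 376 in TAC+control and 381 to 506 in TAC+pimobendan. No macrophage marker was at 0, and the part of macrophage number in the antigen-presentation and interferon differences was not tested. Ccl8, a chemokine made by tissue macrophages, ran from 0.43 over 0.89 to 1.90 FPKM in controls and from 1.65 over 2.44 to 3.37 with pimobendan, at 0.76 ± 0.17 (limma adjusted p = 0.344).

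**Figure D3:**
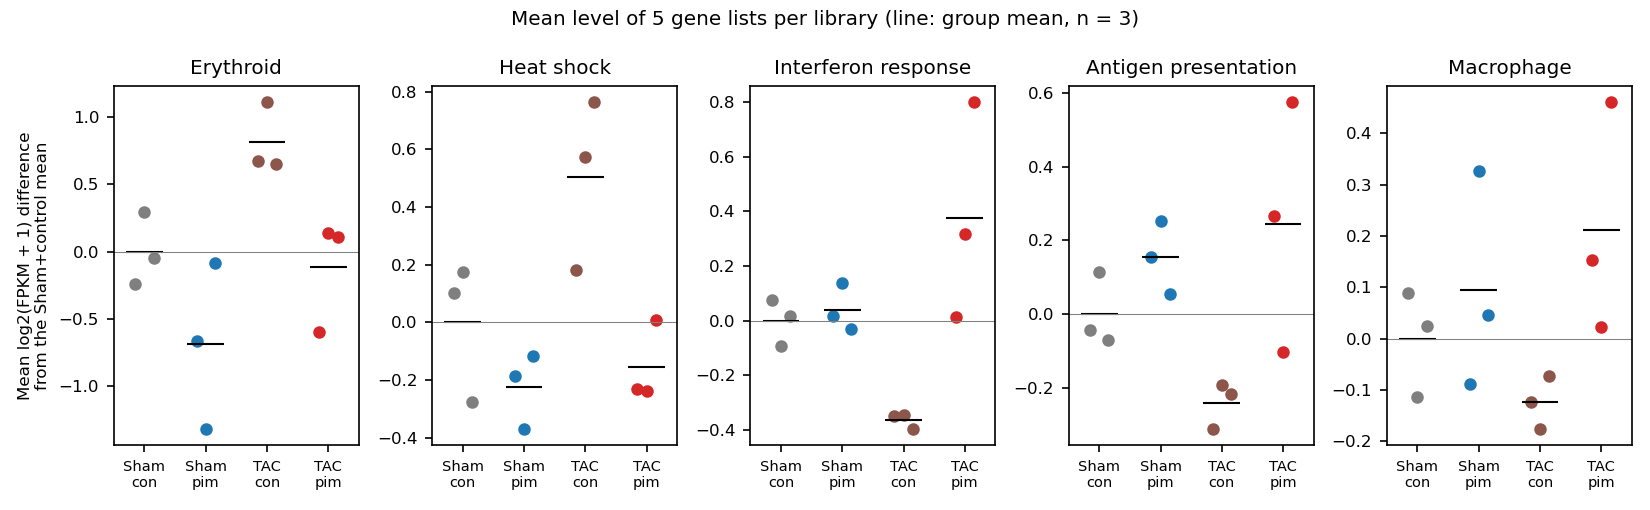
Mean over list members of the log2(FPKM + 1) difference from the Sham+control mean (y axis) for 5 gene lists, by group; points are mice and lines are means of 3. Red-cell (erythroid) and heat shock genes lie highest in TAC+control, and interferon and antigen-presentation genes lie lowest there.

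Heat shock genes had mostly negative differences. Of 13 tested, 12 were negative and 6 had an unadjusted p under 0.05 on the lower side (1.11% of all genes did); the median was -0.30, with -0.15 within sham and -0.25 within TAC. Hspa8, the constitutive HSP70 of the cytosol, ran from 1019 over 1259 to 1490 FPKM in controls and from 864 over 944 to 1079 with pimobendan. Its arms overlapped by 1 control, Sham+control replicate 3, and its difference was -0.36 ± 0.09 (limma adjusted p = 0.353). Hspb1, the small heat shock protein HSP27, ran from 377 to 643 FPKM and from 290 to 423, at -0.54 ± 0.14. The inducible HSP70 genes Hspa1a and Hspa1b had the most negative differences, at -1.32 ± 0.60 and -1.37 ± 0.61, but these rested on 2 mice. Hspa1a was 32.2 and 75.7 FPKM in TAC+control replicates 2 and 3 and between 1.47 and 7.65 in the other 10 libraries. Both genes are near-identical copies, and their split is uncertain. Members other than Hspa8 were picked after their values were seen.

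Of 10 heat shock list members with a promoter in the RefSeq table, 9 held the core of the heat shock element, GAANNTTC. It reads the same on both strands, and 6.90% of all genes with a promoter held it. Here too the share describes how the list was chosen and does not bear on the drug difference. The Hspb1 promoter (chr5:135887669-135887968, plus strand) holds 2 copies, in capitals.
Hspb1: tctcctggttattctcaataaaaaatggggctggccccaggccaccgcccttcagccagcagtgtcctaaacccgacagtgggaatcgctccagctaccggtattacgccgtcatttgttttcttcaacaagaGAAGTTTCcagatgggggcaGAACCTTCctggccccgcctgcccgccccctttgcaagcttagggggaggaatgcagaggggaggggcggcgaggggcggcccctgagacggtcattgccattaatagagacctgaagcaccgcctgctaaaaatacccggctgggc
For the red-cell genes the GATA motif AGATAA was found in the promoters of Alas2 and Hbb-bs, which is 2 of 7 with a promoter, against 7.68% of all. The interferon core GAAANNGAA was also found in 2 of these 7, Alas2 and Hbb-bt, against 8.34% of all. The list was chosen as red-cell genes and the motif after the data were seen, so the share does not bear on the drug difference. Alas2 (chrX:150547167-150547466, plus strand) is shown because it led the lower genes, and its 1 GATA match lies on the opposite strand.
Alas2: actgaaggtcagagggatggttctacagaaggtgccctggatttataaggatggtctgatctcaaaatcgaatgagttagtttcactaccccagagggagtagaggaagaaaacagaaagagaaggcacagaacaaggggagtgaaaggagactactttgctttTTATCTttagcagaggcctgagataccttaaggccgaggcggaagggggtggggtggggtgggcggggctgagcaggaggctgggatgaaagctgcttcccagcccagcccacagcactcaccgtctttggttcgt

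Genes of hypertrophy showed no common direction. Nppa, atrial natriuretic peptide, ran from 137 over 247 to 310 FPKM in controls and from 230.1 over 299 to 554 with pimobendan, at 0.60 ± 0.25 (limma adjusted p = 0.537). Nppb, brain natriuretic peptide, ran from 423 over 624 to 1197 FPKM and from 322 over 519 to 1117, at -0.25 ± 0.27. Myh7, a beta-myosin gene of fetal ventricles, ran from 4.51 over 22.0 to 35.0 FPKM and from 6.37 over 59.8 to 121, at 1.12 ± 0.65 (limma adjusted p = 0.622). All of these arms overlapped. Acta1, skeletal alpha-actin, stood at -0.54 ± 0.48 with a single control, TAC+control replicate 1, at 1608 FPKM, and Ankrd1, a stretch-responsive repeat protein, at 0.30 ± 0.22. These differences leaned on single mice: leaving out 1 library gave 0.63 (without Sham+pimobendan replicate 1) to 1.53 for Myh7, -0.45 to -0.03 (without TAC+control replicate 1) for Nppb, 0.15 to 0.43 for Ankrd1 and -0.82 to -0.09 (without TAC+control replicate 1) for Acta1. Over the 15 tested members 7 were positive and 8 negative. Of 20 sarcomere genes, 15 had a negative difference, with a median of -0.07, which was -0.005 under quantile normalization and -0.13 under median-ratio scaling. Of the 10 cardiomyocyte markers 8 were negative, with a median of -0.05 that turned to 0.01 under quantile normalization; their part in the sarcomere values was not tested. Actn2, the alpha-actinin of the Z-disc (chr13:12267098-12340732, minus strand), ran from 1124 over 1245 to 1339 FPKM in controls and from 871 over 1091 to 1116 with pimobendan. Its arms did not overlap; the pooled difference was -0.23 ± 0.07 (limma adjusted p = 0.473), and it fell within TAC by 0.38 on the log2 scale (limma adjusted p = 0.0409). Among calcium handling genes, Cacnb2, the beta subunit of the L-type calcium channel, ran from 19.1 over 22.4 to 24.6 FPKM and from 24.9 to 30.6, with no overlap and a difference of 0.29 ± 0.07 (limma adjusted p = 0.412). Kcnd2, a transient outward potassium channel, stood at 0.31 ± 0.09.

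Lists of energy metabolism had small medians, slightly positive within sham and negative within TAC; the difference between surgeries was not tested for the lists, and the interaction called 0 genes. Of 41 oxidative phosphorylation genes 35 were negative in the pooled comparison, with a median of -0.04, which was -0.02 with TPM, -0.01 with quantile normalization and -0.11 with median-ratio scaling. Without Sham+control replicate 1 or Sham+pimobendan replicate 3 it was -0.08. The median was 0.02 within sham and -0.16 within TAC. Mitochondrial ribosomal proteins were alike, with 23 of 26 negative and medians of -0.08 pooled, 0.03 within sham and -0.18 within TAC; the pooled one was -0.13 without Sham+control replicate 1. Of the 22 fatty acid oxidation genes, 21 were positive within sham and 9 within TAC, and the pooled median of 0.0049 turned negative under median-ratio scaling and with the GC trend removed. Cpt1a, the gate of mitochondrial fatty acid import, was the only member with an unadjusted p under 0.05. It ran from 12.4 over 13.9 to 16.4 FPKM in controls and from 14.9 over 22.1 to 28.8 with pimobendan, at 0.52 ± 0.14 (limma adjusted p = 0.427), with 0.58 within sham and 0.46 within TAC. Fbn1, the microfibril protein fibrillin-1, led the matrix list at 0.60 ± 0.18 (limma adjusted p = 0.442). Of the 18 matrix members 14 were positive when pooled, with a median of 0.15, and 7 had the same sign in both surgeries. The median was 0.29 within sham, where 15 were positive, and 0.03 within TAC, where 10 were. The pooled median was 0.09 without Sham+control replicate 2 and 0.25 without Sham+pimobendan replicate 1. It was 0.10 under median-ratio and quantile scaling and with the GC trend removed. Of 10 fibroblast markers 8 were positive when pooled, with a median of 0.18. Of these markers 3 had an unadjusted p under 0.05 on the higher side, against 8% of all genes. Their part in the matrix values was not tested.

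Lists of RNA-binding proteins and clock genes had medians of opposite sign within sham and within TAC, a difference that was not tested for the lists. Of 29 hnRNP and RBM genes, 28 were positive when pooled (median 0.13) and 29 within TAC (median 0.30), but 8 within sham (median -0.11). Of all genes, 66.0% were positive within TAC and 53.7% within sham. The median transcript GC content of the hnRNP and RBM list was 44.7%, against 50.1% for all genes. With the GC trend removed the pooled median of the list was 0.05. Nr1d1, the clock repressor REV-ERB alpha, had 26.1, 18.7 and 66.5 FPKM in untreated sham mice and 54.3, 84.5 and 104.5 in treated ones. Its TAC values were 8.14, 52.4 and 20.8 FPKM without the drug and 91.1, 56.7 and 46.7 with it. Groups overlapped in both surgeries, and its difference of 1.39 ± 0.38 (limma adjusted p = 0.427) was the largest positive pooled difference among the 11415 genes. Nfil3 and Cry1, also of the clock, stood at -0.60 and -0.50. The 18 clock genes had a median of 0.07, with -0.21 within sham, where 6 were positive, and 0.39 within TAC, where 13 were. The pooled median turned negative under quantile normalization and without TAC+control replicate 1 or 2. The hour of sampling is not given in the labels.

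**Figure D4:**
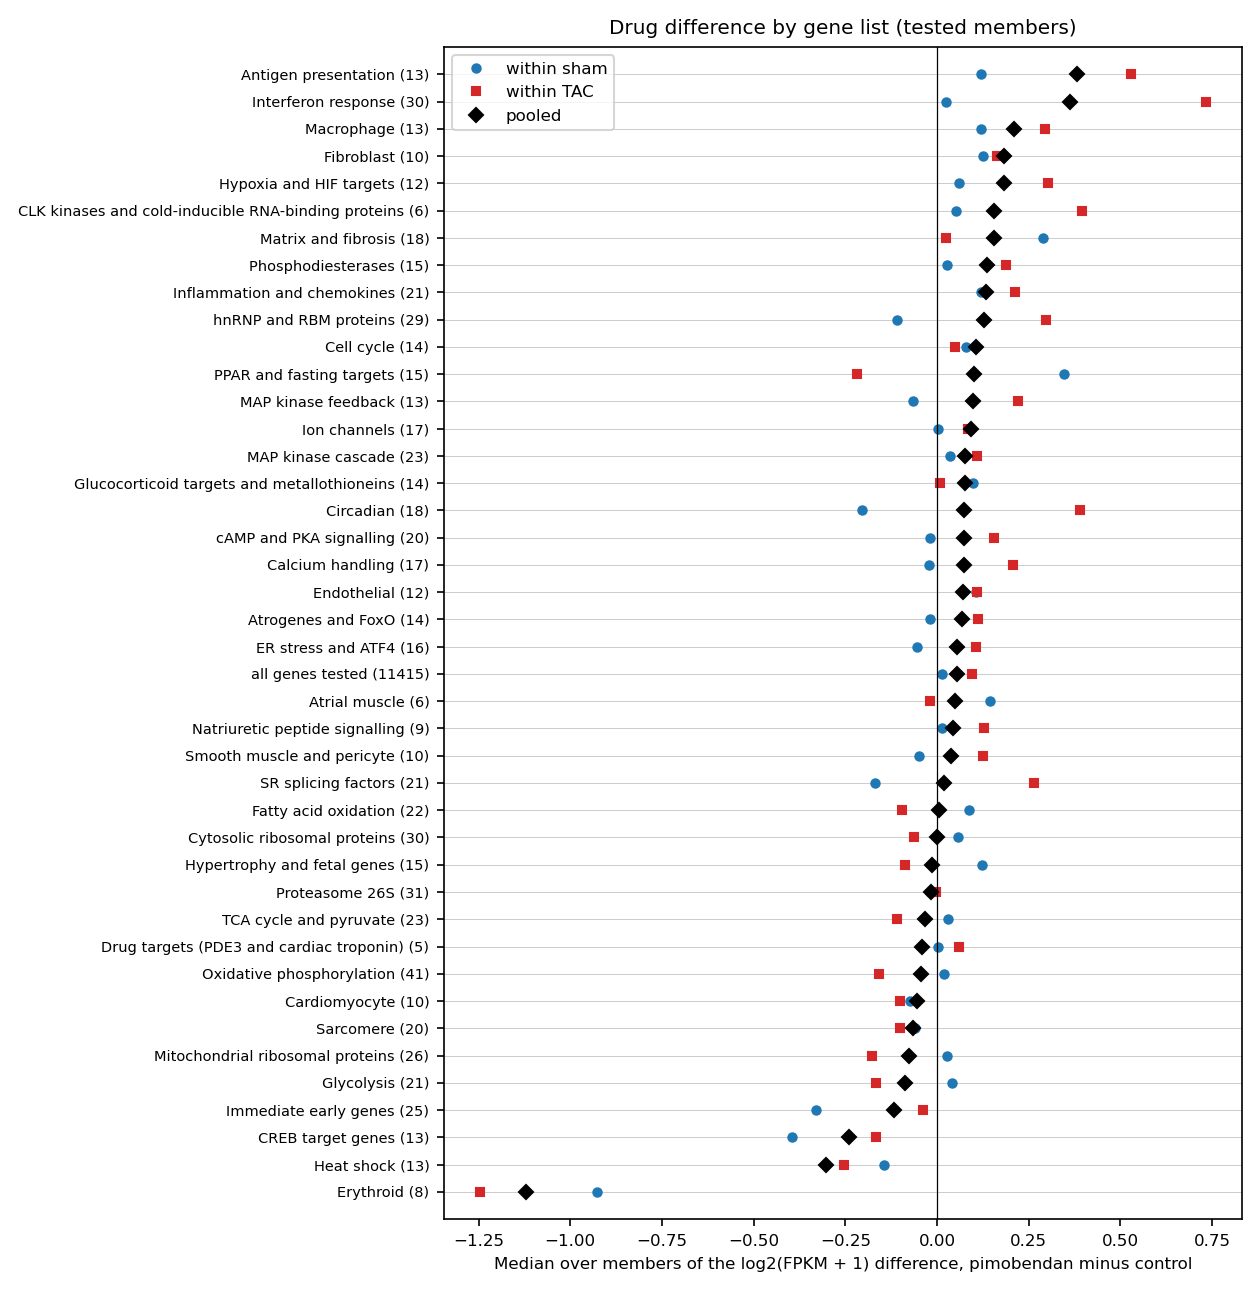
Median over tested list members of the log2(FPKM + 1) difference, pimobendan minus control (x axis), for lists with at least 5 tested members (y axis, number tested in brackets), pooled (diamonds), within sham (circles) and within TAC (squares). Erythroid genes lie at -1.12 pooled and antigen-presentation and interferon genes at 0.38 and 0.36, beside 0.06 for all genes.

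Drug differences in sham and in TAC were compared directly, since they share no mouse. Genes are not independent replicates, so the following values are descriptions: over 11415 genes Pearson's r was -0.185 and Spearman's rho was -0.242, and 42.9% of genes had the same sign in both. Of the 373 genes called within TAC, 89 (23.9%) had the same sign in sham, where their median was -0.11. The relation was weaker without some single libraries and with the GC trend removed: r was -0.0485 without Sham+control replicate 1, 0.0143 without Sham+pimobendan replicate 3, -0.0897 without TAC+pimobendan replicate 3 and -0.0218 with the GC trend removed. The rank correlation stayed negative in each of these, at -0.0729, -0.0441, -0.167 and -0.0912. At an unadjusted p under 0.05 in both surgeries there were 166 of 11415 genes, out of 518 within sham and 3040 within TAC. The overlap of unrelated sets of these sizes was not worked out, so nothing follows from the number of shared genes. Of these 60 (36.1%) had the same sign, 51 higher in both and 9 lower in both, and the others had opposite signs. The 9 were Alas2, Hba-a1, Hba-a2, Hbb-bs, Hbb-bt, Slc25a38, Inpp5j, Hspa8 and Selenoo, so the 4 globin genes and Alas2 made up most of that direction. The globins are near-identical copies within each pair and are counted separately here.

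The genes with the smallest interaction p had opposite signs in the surgeries, and none passed that test. Chrm2, the muscarinic receptor of the heart, had 19.9, 17.6 and 15.6 FPKM in untreated sham mice and 17.6, 14.8 and 11.5 in treated ones. In TAC it had 11.3, 14.9 and 12.8 FPKM without the drug and 20.4, 29.3 and 31.3 with it. Treated mice lay above controls in TAC with no overlap and lower on average in sham, and the pooled difference of 0.36 ± 0.21 therefore averages -0.27 and 0.99 (limma adjusted p for the interaction 0.0853). Slfn5, Tpr, Eif5b and Eprs had the same pattern, with interaction differences of 1.30, 1.17, 1.02 and 1.03 and the same adjusted p. All 5 have a transcript GC content between 41.6% and 45.0%. The interaction called 773 genes without TAC+pimobendan replicate 1.

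**Figure D5:**
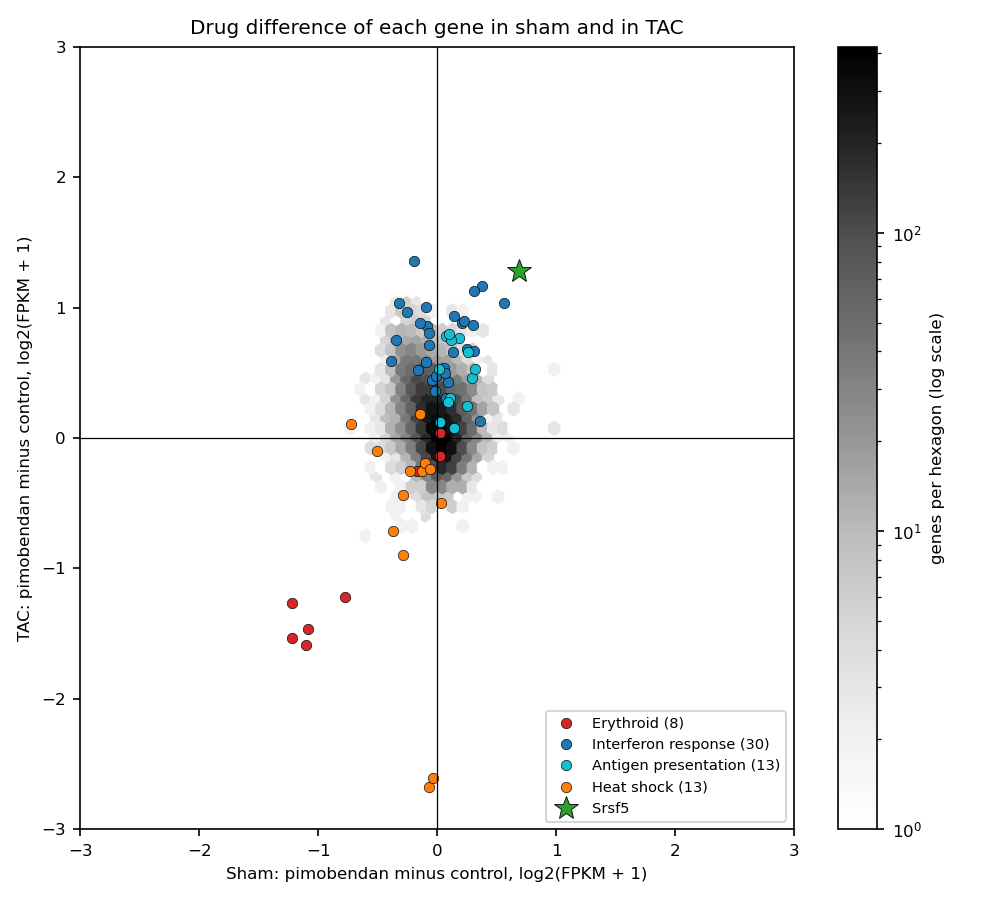
Log2(FPKM + 1) difference of pimobendan minus control within sham (x axis) and within TAC (y axis) for 11415 genes, shaded by the number of genes per hexagon on a log scale, with 4 gene lists and Srsf5 marked. Globin genes and Alas2 lie at the lower left and Srsf5 at the upper right, while interferon genes spread upwards along the TAC axis.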

How the data were processed

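Left ventricular mRNA of 12 mice was sequenced, with oligo(dT) selection and random-hexamer priming per the labels' protocols. The authors deposited FPKM and TPM per gene and sample; both are rounded, length-normalised values and no counts were used here, so depth is unknown and no counting interval is given. The submitters' processing notes name the build GRCm38 and, without roles or order, RSEM 1.2.12, HISAT2 2.0.4, DESeq2 1.4.5 and Bowtie2 2.2.5. TPM served as an alternative only.

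Values were fitted as log2(FPKM + 1) with limma 3.58.1 (trend) in R 4.3.3, so differences understate changes of low genes. The pooled drug coefficient came from an additive model of drug and surgery (9 residual degrees of freedom); within-surgery and interaction contrasts came from a fit with 1 mean per group (8). Benjamini-Hochberg adjustment ran over 11415 genes, with calls under 0.05. The p-values weigh differences against the spread between separate mice. In the additive model this spread also holds any drug effect that differs between surgeries. For Srsf5 the SE was 0.137 in that model and 0.114 in the fit with group means. The code was tested on simulated data.

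Named genes were 12 panel genes (1 is not reported here), the 5 smallest pooled p per direction (mean of at least 5 FPKM in the higher arm, same sign in both surgeries), the member with the smallest p of each list, and the 5 smallest interaction p. The rule would have named called genes, and none was called. Other genes were named after their values were seen. Genes named for a small pooled p were chosen with the same mice, so their separation or p-values within a surgery are no separate support. The question, gene lists and members were chosen with earlier results of these data known. Lists are described by counts and medians beside those of all genes. GC content came from GENCODE transcripts on GRCm38 (11334 of 11415 tested genes), and promoters from RefSeq on GRCm38.p6 (9129). Motif shares planned for called genes are given for unadjusted ones; the GATA and heat shock motifs and the promoters shown were chosen after the data were seen. Alternatives covered scale, filter, pseudocount, library weights, GC content, model, replicate block and leaving out each library.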

Additional observations from a re-analysis of the deposited data

Results flagged for a closer look

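Within each arm of 6 mice, the 22 panel and leading genes were checked for a mouse far from the others (44 arms). One was found: Mapk14 had 23.9 FPKM in TAC+pimobendan replicate 2, against 30.2 to 33.0 in the other 5 treated mice. Its gap on the log2 scale was 0.727 of the arm's range, above Dixon's critical value for 6 samples. Chance flags about 1 in 20 such arms, so a single one among 44 is no more than that rate gives.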

How the results depend on the processing

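Of the pooled comparison, 0 genes were lower under every alternative run, and 0 were higher except for 1 gene, Srsf5, under median-ratio scaling, array weights, the average of both drug effects in the fit with group means, and without Sham+pimobendan replicate 3 (leaving out single libraries gave 0 to 1 higher and 0 to 0 lower; unadjusted, 595 to 1336 higher and 89 to 279 lower). Within sham 0 genes were called under all (0 to 0 with a library left out). Within TAC, 1092 genes were higher with TPM, 1206 with array weights and 0 with median-ratio scaling, quantile normalization, no filter on low values or the GC trend removed; lower were 109 with array weights, 7 with a pseudocount of 0.1 and 0 with those same 4 settings. Leaving out single libraries gave 0 to 1096 higher and 0 to 94 lower within TAC, and 0 to 773 genes for the interaction, which was 500 with array weights and 0 under the other settings. The correlation between surgeries was -0.0218 (Spearman -0.0912) with the GC trend removed, with 36.4% of TAC-called genes of one sign; leaving out libraries gave r from -0.283 to 0.0143, rho from -0.322 to -0.0441, and same-sign shares of 39.5% to 51.2% over all genes and 18.5% to 38.1% over TAC-called genes. The cause of these shifts was not tested.

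The labels do not say whether mice with the same replicate number shared a batch, and this was not tested. The 18 same-numbered pairs of libraries had a mean correlation of deviations of -0.0855 (-0.440 to 0.253, 4 over 0.1), and 36 others 0.0423. With the replicate block, 0 genes were called pooled, within sham and for the interaction. Within TAC 1 was called higher and 0 lower, against 360 and 13 without the block.

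Over 55 named genes, 1254 of 1264 alternative values kept sign and side of the threshold, 4 (Srsf5) passed it and 6 reversed. Mapk8 was -0.0333, -0.0621 and -0.0964 with median-ratio scaling, quantile normalization and the GC trend removed, and -0.00269, -0.00118 and -0.0206 without Sham+control replicate 2, TAC+control replicate 2 and TAC+pimobendan replicate 3, of a range of -0.0206 to 0.103 with single libraries left out. With no depth, small differences of low genes cannot be weighed by counting error.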
